A study of Mus musculus with 18 samples.

Results

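Complement is a set of plasma and tissue proteins that tag cells and debris and recruit phagocytes. C1q, assembled from the products of C1qa, C1qb and C1qc, starts the classical pathway, which cleaves C4 and C2. C3 is the step on which all pathways converge, factor B (Cfb) and properdin (Cfp) drive and stabilise the alternative pathway, and the fragments C3a and C5a act through the receptors C3ar1 and C5ar1. The liver makes most circulating complement, whereas C1q is made mainly by macrophages and related myeloid cells. The 9 genes C1qa, C1qb, C1qc, C3, C3ar1, C5ar1, C4b, Cfp and Cfb were chosen by name from the 13759 genes of the macrophage count table, and all 9 were found there.

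The macrophages were metastasis-associated macrophages (MAMs) sorted from liver metastases of MC38, a mouse colon adenocarcinoma cell line given by intrasplenic injection to female C57BL/6J mice. F4/80high and F4/80low MAMs were lineage-negative CD45+CD11b+ cells that differed in surface F4/80, the product of Adgre1, and each subset was measured in 3 poly(A)-selected libraries. A second table held 12 total-RNA libraries of sorted liver lymphocytes, 3 each of NK cells from metastasis-free liver (MFL NK), ILC1 from metastasis-free liver (MFL ILC1), and CD49a- and CD49a+ NK cells from liver metastases (LM CD49a- NK and LM CD49a+ NK). The libraries grouped as LM CD49a+ NK by their cell type label carry titles that say ILC1. Whether a macrophage library came from 1 mouse or a pool was not given in the sources used here, so p-values measure the spread between these libraries.

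The macrophage libraries held 21278959 to 32267015 counts and the lymphocyte libraries 8795721 to 14386834. Adgre1, the gene of the sorting antigen, was at 806 to 1167 counts per 1000000 (CPM) in F4/80high and 124.5 to 160.4 CPM in F4/80low MAMs, as the gate set it. Csf1r, the receptor for the macrophage growth factor CSF1, was at 2353 to 3599 CPM in F4/80high and 1743 to 2025 CPM in F4/80low MAMs. Of 10 macrophage markers, however, 8 were higher and 0 lower in F4/80high MAMs, against 27.8% and 27.1% of all genes. Mrc1 was among the 8 (1372 ± 309 against 228 ± 28 CPM, SD). The paper, which calls the lower subset F4/80int, proposes that it consists of recruited monocytes on the way to becoming macrophages.

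The 3 C1q genes lie head to tail on the minus strand of chromosome 4 (GRCm39). C1qb comes first at 136606009-136613511, then C1qc at 136616466-136620376 and C1qa at 136623223-136626161. The gaps between their bodies measure 2955 and 2847 bases. C4b (chr17:34947354-34962912) and Cfb (chr17:35074852-35081559) both lie in the class III region of the MHC, and C3 lies further along the same chromosome (chr17:57510964-57535155). C3ar1 is on chromosome 6 (122823393-122833122), C5ar1 on chromosome 7 (15980668-15993465) and Cfp on the X chromosome (20791688-20797794).

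The 250 bases upstream of the annotated start are shown for the 3 C1q genes, which moved together, and for C4b and C3, which moved furthest up and furthest down. Each is printed 5′ to 3′ on the gene's own strand and ends at the base before the start. Capitals mark matches, on either strand, to 7 short motifs: PU.1 (GAGGAA), C/EBP (TTGCNNAA), AP-1 (TGANTCA), GAS (TTCNNNGAA), the ISRE core (GAAANNGAA), the MAF half-site (TGCTGA) and the TATA box (TATAAA).
C1qa (GRCm39, chr4:136626162-136626411, minus strand): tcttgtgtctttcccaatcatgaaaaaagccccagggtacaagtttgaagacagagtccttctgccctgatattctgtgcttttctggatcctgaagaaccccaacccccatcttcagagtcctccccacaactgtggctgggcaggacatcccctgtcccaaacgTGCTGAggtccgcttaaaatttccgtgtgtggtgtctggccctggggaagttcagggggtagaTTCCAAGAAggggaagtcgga
C1qb (GRCm39, chr4:136613512-136613761, minus strand): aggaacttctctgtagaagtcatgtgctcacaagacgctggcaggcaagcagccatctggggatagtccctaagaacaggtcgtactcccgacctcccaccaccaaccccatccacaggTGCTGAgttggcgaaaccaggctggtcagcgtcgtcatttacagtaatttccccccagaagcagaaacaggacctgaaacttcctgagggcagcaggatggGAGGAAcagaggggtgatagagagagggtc
C1qc (GRCm39, chr4:136620377-136620626, minus strand): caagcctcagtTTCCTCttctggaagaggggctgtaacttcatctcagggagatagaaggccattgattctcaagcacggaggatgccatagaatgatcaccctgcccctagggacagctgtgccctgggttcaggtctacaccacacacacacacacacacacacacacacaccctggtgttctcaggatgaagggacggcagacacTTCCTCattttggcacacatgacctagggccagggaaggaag
C4b (GRCm39, chr17:34962913-34963162, minus strand): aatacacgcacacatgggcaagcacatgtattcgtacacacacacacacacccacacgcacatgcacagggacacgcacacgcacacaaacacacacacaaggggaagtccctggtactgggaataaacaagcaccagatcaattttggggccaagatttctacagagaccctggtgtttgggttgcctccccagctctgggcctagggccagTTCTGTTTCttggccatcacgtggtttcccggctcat
C3 (GRCm39, chr17:57535156-57535405, minus strand): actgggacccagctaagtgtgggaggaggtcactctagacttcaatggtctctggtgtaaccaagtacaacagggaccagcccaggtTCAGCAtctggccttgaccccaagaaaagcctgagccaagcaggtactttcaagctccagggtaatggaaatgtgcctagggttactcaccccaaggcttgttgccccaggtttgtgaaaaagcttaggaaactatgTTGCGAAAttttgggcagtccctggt

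The PU.1 letters, those of a factor that macrophages depend on, occurred upstream of C1qb at -30 to -25 and of C1qc at -42 to -37 and -239 to -234, counting back from the start. They were found in 22.9% of the same windows of 21770 protein-coding genes. The C1qa window held a GAS match at -21 to -13, a motif read by STAT factors, which 7.7% of windows held. MAF half-site letters were upstream of 5 of the 9 genes, C1qa, C1qb, C3, C3ar1 and C5ar1, against 14.8% of all windows. C/EBP letters, present in 9.34% of windows, were at -26 to -19 of C3, and AP-1 letters, present in 6.17%, at -16 to -10 of C3ar1. The TATA box letters were upstream of C3ar1 alone among the 9, against 11.9% of windows. ISRE core letters, those of interferon-responsive elements, were upstream of C4b at -37 to -29 and of C5ar1 at -66 to -58, against 7.55% of windows. The Cfp and Cfb windows held none of the 7 motifs, and no matches overlapped in any of the 9 windows. These matches describe the letters in the window and are not evidence of binding.

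To ask how the complement programme differed between macrophage subsets, F4/80high MAMs were set against F4/80low MAMs with edgeR's quasi-likelihood test, calling a gene at an adjusted p under 0.1. All 9 genes were called, 7 higher and 2 lower in F4/80high MAMs. The background was high, since 54.9% of the 13759 genes were called, 27.8% higher and 27.1% lower. With a change of at least 2-fold as well, 6 of the 9 genes were called against 22% of all genes, 5 of them higher (11.1% of all genes) and 1 lower (11%). At an adjusted p under 0.05, 8 of the 9 were called against 47%. The 3 libraries of one subset did not overlap those of the other for 8 of the 9 genes, against 58.4% of all genes, and 6 of these were higher in F4/80high MAMs (29.8% of all genes) and 2 lower (28.6%). The median log2 fold change of the 9 genes was 1.28, beside 0.01 over all genes. In these bulk samples, more cells that express a gene and more RNA per cell cannot be told apart.

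**Figure D1:**
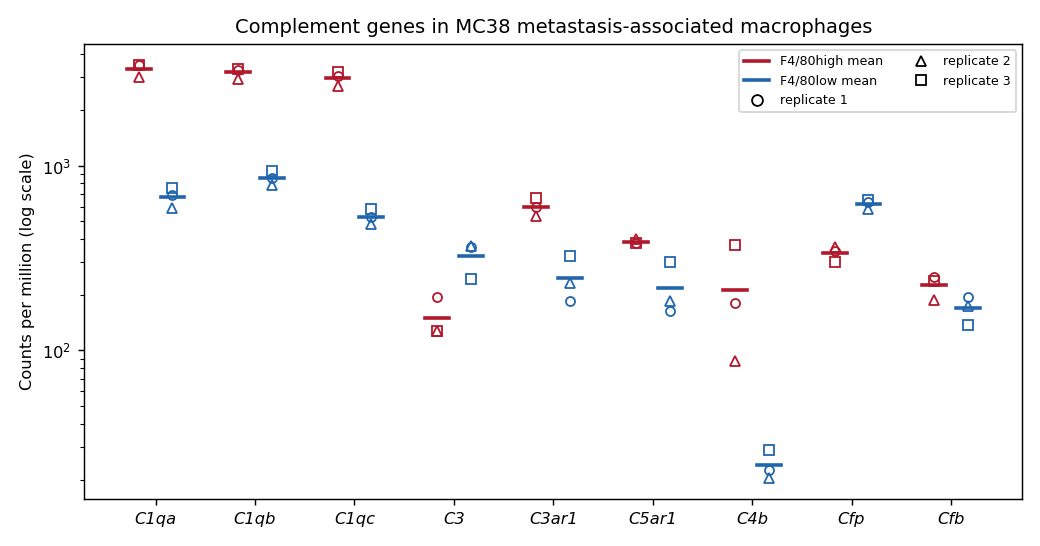
CPM (log axis) of the 9 complement genes in each library of F4/80high (red) and F4/80low (blue) MAMs, with bars at the means. C1qa, C1qb and C1qc reached 2690 to 3516 CPM in F4/80high libraries, C3 and Cfp were lower there, and Cfb is the gene whose subsets overlap.

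C1qa, C1qb and C1qc, which encode the 3 chains of C1q, were the most abundant of the 9 genes in F4/80high MAMs, where they were 3.73- to 5.63-fold higher than in F4/80low MAMs. C1qa was at 3516, 3028 and 3500 CPM in the F4/80high libraries and at 689.5, 592.8 and 753.3 CPM in the F4/80low libraries. Its lowest F4/80high value thus stood far above its highest F4/80low value, and the log2 fold change was 2.30 ± 0.13 (SE, n = 3 per subset, adjusted p = 5.11e-06).

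C1qb measured 3308, 2924 and 3343 CPM in F4/80high and 852.4, 782.5 and 934.1 CPM in F4/80low MAMs. It had the highest F4/80low values of the 3 chains and the smallest difference, a log2 fold change of 1.90 ± 0.11 (SE, adjusted p = 7.19e-06). C1qc, at 3038, 2690 and 3209 CPM against 525.1, 483.3 and 578.8 CPM, differed most, by 2.49 ± 0.12 on the log2 scale (SE, adjusted p = 3.15e-06). In both subsets replicate 2 had the lowest and, apart from C1qa in F4/80high MAMs, replicate 3 the highest value of each chain.

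By mean CPM over all 6 libraries C1qb ranked 30, C1qa 31 and C1qc 46 of 13759 genes. Together the 3 chains took 0.934 to 1.04% of all counts in F4/80high libraries and 0.182 to 0.211% in F4/80low libraries. The 9 genes together took 1.12 to 1.25% and 0.334 to 0.367%. The C1q chains thus made up most of the counts of the 9 genes in either subset.

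In these libraries the 3 chains changed by different factors. With 3 against 3 libraries the exact test of their ratios could not give a p under 0.1, so it could not decide whether the ratios differ. The ratio of C1qa to C1qb counts was 1.05 ± 0.01 (SD, n = 3) in F4/80high and 0.791 ± 0.029 in F4/80low MAMs. For C1qc to C1qb it was 0.933 ± 0.024 and 0.618 ± 0.002, and the F4/80low libraries lay between 0.616 and 0.62. C1qa to C1qc, which follows from the other ratios, ran the other way, at 1.13 ± 0.03 and 1.28 ± 0.05. None of these ratios overlapped between subsets, and neither did the CPM of 58.4% of all genes. No such share was computed for ratios of other gene pairs. A ratio within a library does not depend on the scaling between libraries. Each of the 3 gave p = 0.1 in a two-sided exact permutation test, the smallest that 3 against 3 libraries allow, and 0.117 after Benjamini-Hochberg adjustment over 7 ratios.

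**Figure D2:**
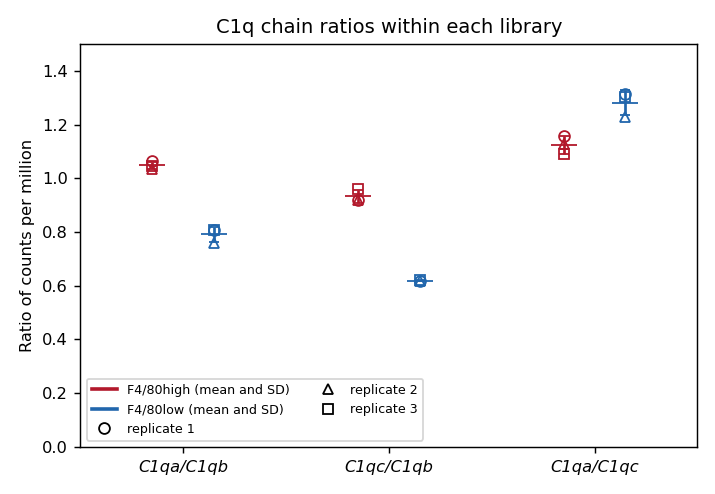
Ratio of CPM between pairs of C1q chains within each library, with the mean and SD of each subset. The ratios to C1qb were higher in F4/80high (red) than in F4/80low MAMs (blue), and the subsets do not overlap in any of the 3 ratios.

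C4b, which encodes the C4 that classical pathway proteases cleave, showed the largest difference of the 9 genes. Its F4/80high libraries were at 181, 88.07 and 369.5 CPM and its F4/80low libraries at 22.39, 20.32 and 29.06 CPM. Every F4/80high value was above every F4/80low value, but the F4/80high libraries spread more widely than for any other of the 9 genes, with a coefficient of variation of 67.4%. The log2 fold change was 3.16 ± 0.47 (SE, adjusted p = 0.000836), a fold of 8.92. Without F4/80high replicate 3, the highest library, it was 2.49 (adjusted p = 0.000626). C4a, a near-identical copy of C4b, was at 0.605 to 1.18 CPM in the 6 libraries and was not called (adjusted p = 0.687), and how the counting split reads between the copies is uncertain.

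C3, the central component, was lower in F4/80high MAMs. It was at 194.4, 127.4 and 127 CPM there and at 361.7, 367.2 and 242.3 CPM in F4/80low MAMs. The subsets did not overlap, and F4/80low replicate 3 was the library nearest to the other subset. The difference was a log2 fold change of -1.11 ± 0.21 (SE, adjusted p = 0.00296).

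Cfp, which encodes properdin, the stabiliser of the alternative pathway convertase, was also lower. Its values were 346.8, 361.4 and 301.5 CPM in F4/80high and 638.4, 584.1 and 647.1 CPM in F4/80low MAMs. Replicates lay close together in both subsets, and Cfp fell by 0.89 ± 0.10 on the log2 scale (SE, adjusted p = 0.000185). The ratio of Cfp to C3 was 2.33 ± 0.53 (SD, n = 3) and 2.01 ± 0.58, with overlapping libraries (exact permutation p = 0.5, adjusted 0.5).

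Cfb, which encodes factor B, the protease of the alternative pathway convertase, had the smallest difference. It was at 248.5, 188.1 and 238.1 CPM in F4/80high and 195.3, 173.5 and 138 CPM in F4/80low MAMs. The lowest F4/80high library was below the highest F4/80low library. The log2 fold change of 0.41 ± 0.15 (SE) had an adjusted p of 0.0517, under 0.1 but not under 0.05. The call was lost without F4/80high replicate 1 (0.34, adjusted p = 0.159), without F4/80high replicate 3 (0.36, adjusted p = 0.121) and without F4/80low replicate 3 (0.29, adjusted p = 0.144). Relative to C3, however, Cfb counts were 1.54 ± 0.30 (SD, n = 3) in F4/80high and 0.527 ± 0.050 in F4/80low MAMs with no overlap (exact permutation p = 0.1, the smallest possible, adjusted 0.117). Cfb overlaps Nelfe on the other strand, and the directional kit marks strand, but whether the counting used it was not given in the sources used here. The annotation also holds Gm20547, a gene on the same strand that overlaps Cfb and had no row in the table.

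C3ar1, the receptor for C3a, was higher in F4/80high MAMs. It was at 599.5, 530.3 and 669.4 CPM there and at 186.1, 231.4 and 325.9 CPM in F4/80low MAMs. The subsets were separate, and the log2 fold change was 1.28 ± 0.20 (SE, adjusted p = 0.00101). C5ar1, the receptor for C5a, was at 382.7, 401.7 and 379.3 CPM in F4/80high and 162.7, 185.2 and 300.6 CPM in F4/80low MAMs. It differed by less, with a log2 fold change of 0.84 ± 0.21 (SE, adjusted p = 0.0101).

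For both receptors the F4/80low libraries spread more than the F4/80high libraries, and F4/80low replicate 3 was the highest of its subset. The coefficient of variation of C5ar1 was 3.12% in F4/80high and 34.2% in F4/80low MAMs. Without F4/80low replicate 3 the log2 fold changes were 1.52 for C3ar1 (adjusted p = 0.000255) and 1.16 for C5ar1 (adjusted p = 0.000183). Without F4/80low replicate 1, the lowest of its subset, they were 1.099 for C3ar1 (adjusted p = 0.00257) and 0.67 for C5ar1 (adjusted p = 0.0285). C3ar1 counts relative to C5ar1 counts were 1.55 ± 0.22 (SD, n = 3) in F4/80high and 1.16 ± 0.08 in F4/80low MAMs (exact permutation p = 0.1, the smallest possible, adjusted 0.117).

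**Figure D3:**
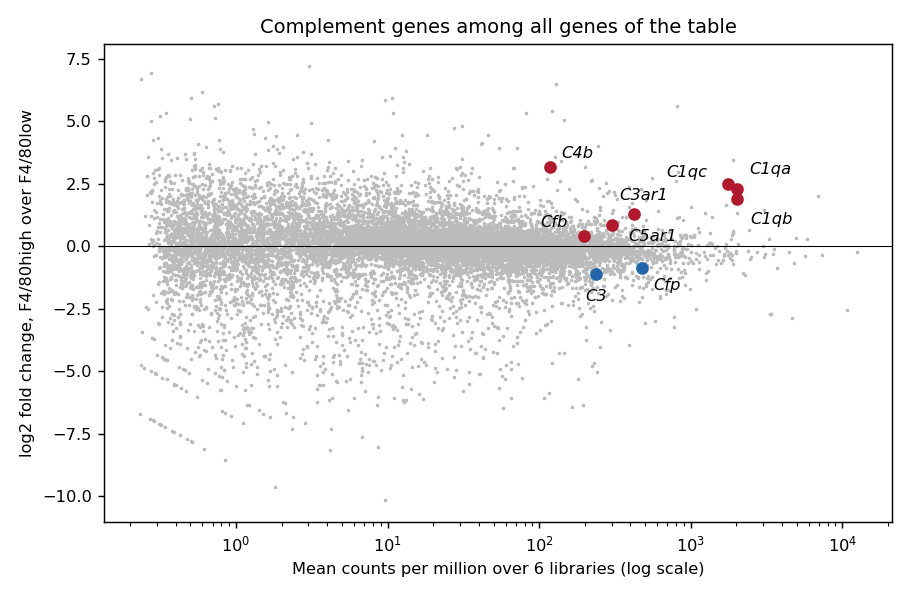
log2 fold change of F4/80high over F4/80low MAMs against mean CPM over the 6 libraries (log axis) for all 13759 genes (grey) and the 9 complement genes (red higher, blue lower in F4/80high). The C1q genes combine a high level with log2 fold changes of 1.90 to 2.49, and C3 and Cfp lie below 0.

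Levels of different genes were compared per length, as CPM per kilobase of the canonical transcript. On that scale C1qa led in both subsets, at 3080 ± 255 in F4/80high and 624 ± 74 in F4/80low MAMs (SD, n = 3). In F4/80high MAMs C1qc (1609 ± 143) and C1qb (1260 ± 92) followed, then Cfp (205 ± 19), C5ar1 (153 ± 5), C3ar1 (120 ± 14), Cfb (67.2 ± 9.6), C4b (39.2 ± 26.4) and C3 (29 ± 7.5). Of the neighbours in this order, Cfb and C4b, and C4b and C3, had overlapping libraries.

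The order was different in F4/80low MAMs, where Cfp was the second gene at 380 ± 21 CPM per kilobase. C1qb (338 ± 30) and C1qc (286 ± 26) came next, then C5ar1 (85 ± 29.1), C3 (62.8 ± 13.7), Cfb (50.5 ± 8.6), C3ar1 (49.5 ± 14.2) and C4b (4.4 ± 0.84). Here the libraries of Cfp and C1qb, of C1qb and C1qc, and of each neighbouring pair from C5ar1 to C3ar1 overlapped. The place of C1qb depends on transcript length, which is 2532 bases for its canonical transcript and 6246 bases for all its annotated exons. With the exon lengths of all transcripts the order in F4/80high MAMs remained the same, whereas in F4/80low MAMs C1qc (185) passed C1qb (137), and C3ar1 and Cfb traded places at nearly equal levels.

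The wider pathway was described with 52 complement genes, of which 28 were in the table and 23 were called, 16 higher and 7 lower in F4/80high MAMs, beside 54.9% of all genes called, 27.8% higher and 27.1% lower. Without the 9 genes above, 43 remained, 24 of them had no row in the table and 14 of the other 19 were called, 9 higher and 5 lower. Their median log2 fold change was 0.61, beside 0.01 over all genes.

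Among genes of the classical and lectin pathways, 10 of 18 were in the table, and 8 were higher and 1 lower in F4/80high MAMs (27.8% and 27.1% over all genes). These counts include C1qa, C1qb, C1qc and C4b, all higher and already described. C1ra, a copy of the protease that C1q activates, was at 21.3 ± 3.2 CPM in F4/80high and 8.69 ± 1.25 CPM in F4/80low MAMs (SD, n = 3), with a log2 fold change of 1.29 ± 0.15 (SE, adjusted p = 0.000264). C2, the partner of C4 in the classical convertase, was low, at 1.7 ± 0.41 and 0.802 ± 0.250 CPM (adjusted p = 0.031). C2 lies 19 bases from Cfb on the same strand, so reads near their shared border are uncertain.

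The lectin pathway genes were all low in level. Masp1, a protease of that pathway, was at 2.32 ± 0.78 CPM in F4/80high and 0.598 ± 0.307 CPM in F4/80low MAMs (SD, adjusted p = 0.00601). Fcna, a ficolin, was at 7.33 ± 4.23 and 1.87 ± 0.57 CPM (adjusted p = 0.00632). Fcnb, a ficolin of myeloid cells, went the other way, at 0 to 0.0709 CPM in F4/80high and 0.478 to 2.33 CPM in F4/80low MAMs (adjusted p = 0.00362). Among terminal components 5 of 6 had no row, and C6, named after its values were seen, was at 0.602 to 1.65 CPM in F4/80high and 0 to 0.0432 CPM in F4/80low MAMs (adjusted p = 0.00127).

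Of 8 measured receptors, C3ar1 and C5ar1 included, 5 were higher and 2 lower, and the whole table also held calls in both directions (27.8% higher and 27.1% lower). Cd93, a phagocyte surface protein once described as a C1q receptor, was at 510 ± 69 CPM in F4/80high and 140 ± 35 CPM in F4/80low MAMs (SD, n = 3), and its log2 fold change was 1.87 ± 0.19 (SE, adjusted p = 0.000105). C5ar2, the second C5a receptor and the neighbour of C5ar1, rose by 0.61 ± 0.17 on the log2 scale (SE, adjusted p = 0.0174). Vsig4, a C3b receptor of resident macrophages, was at 2.01 to 4.07 CPM in F4/80high and 0.13 to 0.492 CPM in F4/80low MAMs.

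The integrins that bind C3 fragments did not follow. Itgax, the alpha chain of complement receptor 4 and also known as CD11c, was at 106 ± 33 CPM in F4/80high and 887 ± 105 CPM in F4/80low MAMs, a log2 fold change of -3.06 ± 0.23 (SE, adjusted p = 2.62e-05). Itgb2, the beta chain of complement receptors 3 and 4, was at 486 ± 26 and 1185 ± 111 CPM (log2 fold change -1.29 ± 0.10, adjusted p = 3.29e-05). Itgam encodes CD11b, on which both subsets were sorted, and was at 1387 ± 283 and 1282 ± 250 CPM (SD, n = 3), with no call (log2 fold change 0.11 ± 0.18, adjusted p = 0.632).

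Of 6 measured regulators 1 was higher and 2 were lower, a share near the 54.9% called over all genes. Cr1l, the rodent membrane regulator Crry, was at 59.4 ± 6.9 CPM in F4/80high and 59.6 ± 3.3 CPM in F4/80low MAMs (SD, n = 3), a log2 difference of -0.0037 with an SE of 0.104 (adjusted p = 0.979). Cd59a, an inhibitor of the membrane attack complex, was higher at 2.71 ± 1.08 against 1 ± 0.13 CPM (adjusted p = 0.00978). Clu, which encodes clusterin, was at 2.13 ± 0.81 and 4.8 ± 2.2 CPM (adjusted p = 0.0364), and Susd4 at 0 to 0.13 and 0.99 to 1.17 CPM (adjusted p = 0.00187). Cd55, which encodes a convertase inhibitor, was at 1.29 ± 1.51 and 0.725 ± 0.445 CPM and was not called.

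**Figure D4:**
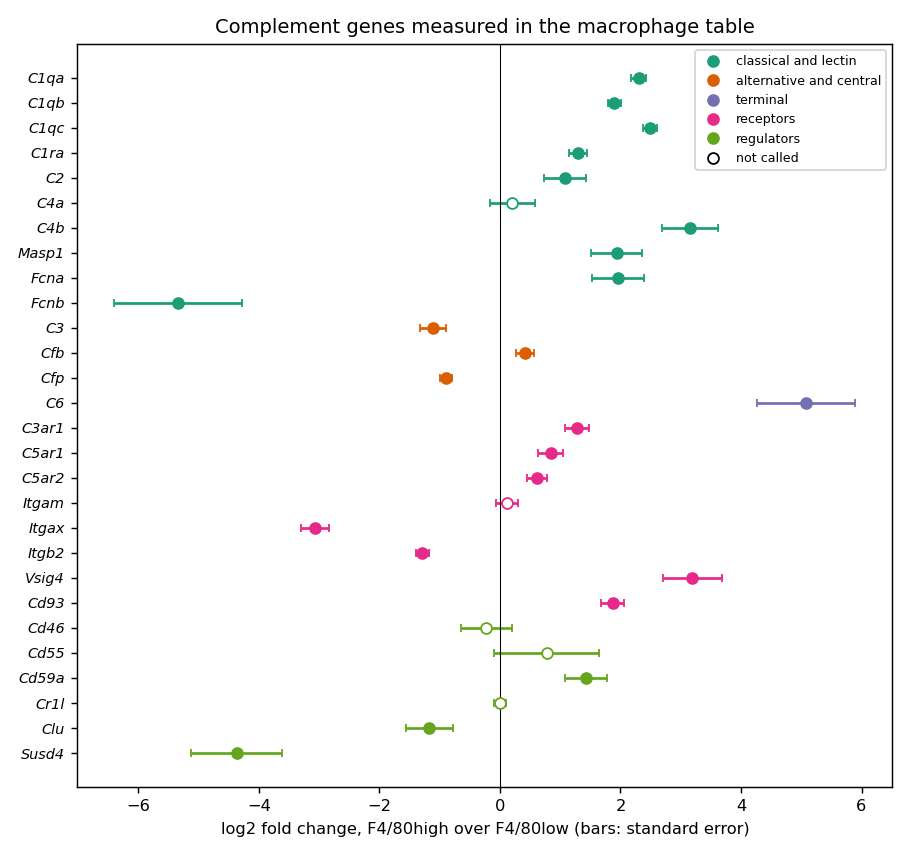
log2 fold change of F4/80high over F4/80low MAMs with its standard error for the 28 complement genes of the table, coloured by role, with open points for the 5 genes not called. Early classical components and the anaphylatoxin receptors lie to the right, while C3, Cfp, Itgax and Itgb2 lie to the left. C6, Fcnb and Susd4 had libraries at 0 counts, so their fitted values depend on the prior count.

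Genes around the C1q cluster did not share its difference where they could be measured. Ephb2, 42658 bases from C1qb, was the only other gene of the table within 50 kb, at 2.33 CPM in F4/80high and 2.06 CPM in F4/80low MAMs (log2 fold change 0.17 ± 0.33, adjusted p = 0.705). Around C3, 3 other genes were in the table, Gpr108, Tnfsf14 and Trip10. All were called lower, by 0.40, 0.80 and 0.46 on the log2 scale. Over all genes, 27.1% were called lower and 27.8% higher in F4/80high MAMs, a background for each neighbour here and below. Whether position played a part in these differences was not tested. Next to C3ar1, Foxj2 lies 1061 bases away and went the other way, with a log2 fold change of -0.56 ± 0.11 (SE, adjusted p = 0.00401). Necap1 (0.12, adjusted p = 0.476) and Slc2a3 (-0.14, adjusted p = 0.479) were not called, nor was Gm5112 (adjusted p = 0.239).

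Around C5ar1, Bbc3 (-0.41, adjusted p = 0.0391) and Ccdc9 (-0.32, adjusted p = 0.057) were lower, and Dhx34 (adjusted p = 0.818) and Inafm1 (adjusted p = 0.817) were not called. Elk1, 297 bases from Cfp, was lower by a log2 fold change of -0.44 ± 0.09 (SE, adjusted p = 0.00505), and Syn1, at 0.998 CPM in F4/80high and 5.07 CPM in F4/80low MAMs, was lower by -2.34 ± 0.25 (SE, adjusted p = 0.000149). Uxt (adjusted p = 0.173) and A230072C01Rik (adjusted p = 0.735) were not called. Near Cfb, Zbtb12 (1.12, adjusted p = 0.000193), Gm56901 (1.40, adjusted p = 0.0116) and Ehmt2 (0.18, adjusted p = 0.0871) were higher and Skic2 (-0.32, adjusted p = 0.0123) was lower. Nelfe, Dxo and Stk19 were not called, with adjusted p of 0.498, 0.31 and 0.213. No other gene within 50 kb of C4b was in the table.

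The pattern most like the mean of the 3 C1q genes was sought among 8900 genes with a mean of at least 10 CPM, as the root-mean-square distance between centred log2 CPM values over the 6 libraries. The nearest were Ntpcr (0.0688), Pmepa1 (0.112), Stau2 (0.117), Ptgs1 (0.117) and Paox (0.123). Ntpcr, which encodes a nucleoside triphosphatase, was at 212.3, 208.8 and 225.7 CPM in F4/80high and 45.41, 44.19 and 48.13 CPM in F4/80low MAMs. Ptgs1, which encodes cyclooxygenase 1, was at 153 ± 12 and 29.3 ± 4.3 CPM. On the same measure C1qa lay at 0.0434, C1qc at 0.131 and C1qb at 0.167 from their own mean. C1qb and C1qc were thus further from it than these 5 genes. C3ar1 lay at 0.506, which ranked 611 of 13759 genes, C4b at 0.643 and C5ar1 at 0.71, all further than the 5 genes and the 3 chains. With 3 libraries per subset the measure mostly reflects the size of the difference between subsets.

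The subsets also differed in markers of other cells, whose part in these results was not tested. Marker counts here and below stand beside 27.8% of all genes called higher and 27.1% called lower in F4/80high MAMs. Of 10 macrophage markers, Adgre1 included, 8 were higher in F4/80high MAMs, with summed levels of 16380 to 24360 CPM against 6132 to 8132 CPM. Of 8 classical monocyte markers 7 were lower, at 954 to 1229 CPM in sum against 2358 to 2747 CPM. The exception, F13a1, was higher (583 ± 172 against 196 ± 60 CPM, SD, adjusted p = 0.0015) and held a large part of the F4/80high sum. Conventional dendritic cell markers, 4 of 5 of them lower, summed to 8.04 to 10.4 CPM in F4/80high and 229 to 344 CPM in F4/80low MAMs. Of 6 tumor epithelium markers the 2 in the table, Epcam and Cdh1, were both lower, at 8.3 to 11.8 CPM in sum against 197 to 281 CPM, nearly all of it Cdh1, while the keratins Krt8, Krt18 and Krt19 had no row. Of 4 measured endothelium markers 3 were lower and 1 higher, at 15.9 to 18.8 CPM in sum against 40.2 to 44 CPM. The endothelium marker that was higher in F4/80high MAMs was Cdh5 (5.13 ± 0.75 against 3.26 ± 0.99 CPM, SD). F4/80low MAMs, in which C3, Cfp, Itgax and Itgb2 were higher, also had the higher sums of monocyte, dendritic cell and endothelium markers and of Epcam and Cdh1. Whether these differences are linked was not tested. T cell, B cell and NK cell markers each summed to at most 36.9 CPM and erythroid markers to at most 100.1 CPM in the 6 libraries.

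Neutrophil markers, of which 8 of 10 were in the table and 7 were lower, summed to 74 to 105 CPM in F4/80high and 99.1 to 205 CPM in F4/80low MAMs, with Ly6g and Camp absent. Nearly all of the F4/80high sum was Csf3r, which was not called (85.7 ± 15.7 against 75.2 ± 8.7 CPM, SD, adjusted p = 0.306). Mmp8, the highest of the 7 lower markers in F4/80high MAMs, was at 0.464 ± 0.284 CPM there and 10.3 ± 6.2 CPM in F4/80low MAMs. The highest sum belonged to F4/80low replicate 1, in which C3 and Cfp were each between the values of the other F4/80low libraries. Fibroblasts also make C4 and C3, and 4 of 5 measured fibroblast markers were higher in F4/80high MAMs, at 258 to 556 CPM in sum against 43.4 to 151 CPM. The F4/80high library with the highest fibroblast sum, replicate 2, had the lowest C4b of its subset, 88.07 CPM. Between replicates 1 and 3, the higher fibroblast sum (311 against 258 CPM) went with the higher C4b (369.5 against 181 CPM). The part of neutrophil and fibroblast RNA in the C3, Cfp and C4b values was not tested.

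Hepatocytes, the main source of plasma C3 and factor B, left few transcripts. The sum of the 7 hepatocyte markers in the table was 3.54 to 15.9 CPM in F4/80high and 3.42 to 7.31 CPM in F4/80low MAMs. Alb, which encodes albumin, did not exceed 6.84 CPM. The part of hepatocyte transcripts in the C3 and Cfb values of MAMs was not tested. Kupffer cells are the resident macrophages of the liver. Of 7 Kupffer cell markers 5 were higher in F4/80high MAMs, at 73.5 to 105 CPM in sum against 15.2 to 20.9 CPM. Most of that was Folr2, at 79.6 ± 21.3 CPM in F4/80high MAMs, while Clec4f, the defining marker, stayed at 0.422 to 2.8 CPM in the 6 libraries, and Timd4 was lower (0.368 ± 0.241 against 8.41 ± 1.00 CPM).

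The same 9 genes were examined in the lymphocytes, which are not a known source of C1q. All 9 were in that table, and 4 (C3, C4b, Cfp and Cfb) passed the filter on low counts. The lymphocyte and macrophage tables come from different library kits and were scaled separately, so their levels were not tested against each other. C1qa did not exceed 0.997 CPM, C1qb 0.853 CPM and C1qc 0.653 CPM in any of the 12 libraries. They had 0 counts in 6, 8 and 7 of them, which allows up to 0.22 to 0.334 CPM per library (a limit of 3 counts, counting error only). C3ar1 had counts in 1 library (1.02 CPM) and C5ar1 in 2 (0.952 and 1.42 CPM), all of them MFL ILC1.

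C3 in the lymphocytes was uneven between replicates. In MFL NK it was at 36.5, 5.6 and 3.16 CPM, in MFL ILC1 at 7.55, 30.9 and 9.29 CPM, in LM CD49a- NK at 0, 0 and 0.0788 CPM, and in LM CD49a+ NK at 0, 6.73 and 0 CPM. The libraries from metastasis-free liver were all above those of LM CD49a- NK, while 1 LM CD49a+ NK library fell among them. C4b ran from 0 to 10.4 CPM in the libraries from metastasis-free liver and had 0 counts in all 6 libraries from metastases. Cfp reached 5.47 CPM in MFL NK and 4.07 CPM in LM CD49a+ NK, and Cfb reached 5.63 CPM in MFL NK.

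None of the 4 genes tested was called by edgeR in LM CD49a- NK against MFL NK, in LM CD49a+ NK against LM CD49a- NK or in MFL ILC1 against MFL NK, where 0.0736%, 0.14% and 3.06% of 13594 genes were called. At an unadjusted p under 0.05 the counts were 4, 1 and 0, beside 6.72%, 11.6% and 8.37% of all genes. The 4 genes passed the filter through the libraries from metastasis-free liver, where they were higher, so nothing was read from these counts. C3 had 0, 0 and 1 counts in the LM CD49a- NK libraries, and nothing was read from its p-values and calls either. C3 had an unadjusted p of 0.00234 (adjusted p = 0.406) in LM CD49a- NK against MFL NK. DESeq2 called C3 in that comparison (lower in LM CD49a- NK, adjusted p = 0.00308) and in LM CD49a+ NK against LM CD49a- NK (adjusted p = 0.0825), the latter on 86 counts in 1 library and 1 count in another of the 6. limma-voom called none, with 4, 0 and 0 of the 4 genes at an unadjusted p under 0.05.

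**Figure D5:**
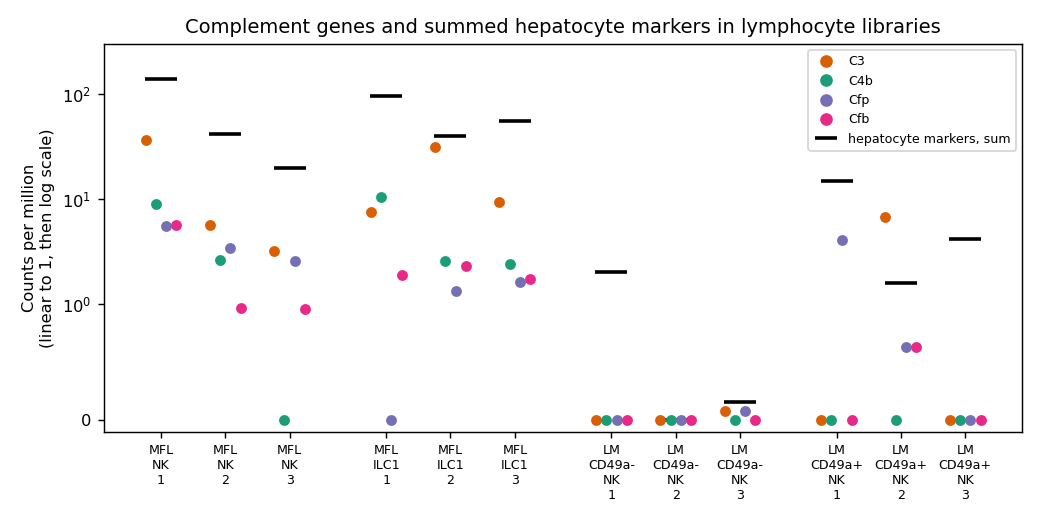
CPM of C3, C4b, Cfp and Cfb (points) and the summed hepatocyte markers (black bars) in each of the 12 lymphocyte libraries, on an axis that is linear up to 1 and logarithmic above. The hepatocyte sum is 19.8 CPM or more in every library from metastasis-free liver (MFL) and at most 14.8 CPM in those from metastases (LM), and C3 does not exceed 36.5 CPM.

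Hepatocyte markers were also higher in the libraries from metastasis-free liver. They summed to 19.8 to 140 CPM in MFL NK, 39.5 to 94.8 CPM in MFL ILC1, 0 to 2 CPM in LM CD49a- NK and 1.56 to 14.8 CPM in LM CD49a+ NK. The MFL NK library with the highest sum, replicate 1, also had the highest C3, C4b, Cfp and Cfb of its group. In MFL ILC1 the library with the highest sum, replicate 1, had the lowest C3, the highest C4b and no Cfp counts. Among LM CD49a+ NK libraries, replicate 2 had the lowest sum (1.56 CPM) and the only C3 (6.73 CPM), and replicate 1 the highest sum (14.8 CPM) with C3 at 0. The part of hepatocyte RNA in these values was not tested.

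Other complement genes were tested in the lymphocytes as well, and 2 of them passed the test. Itgam, the CD11b chain of complement receptor 3, was at 936 ± 203 CPM in MFL NK, 833 ± 82 CPM in LM CD49a- NK, 253 ± 101 CPM in LM CD49a+ NK and 39.6 ± 8.5 CPM in MFL ILC1 (SD, n = 3). It was lower in LM CD49a+ than in LM CD49a- NK, with a log2 fold change of -1.72 ± 0.29 (SE, adjusted p = 0.0402), and in MFL ILC1 than in MFL NK, with -4.56 ± 0.33 (SE, adjusted p = 1.93e-07). Cd55 was lower in MFL ILC1 (7.55 ± 6.39 CPM) than in MFL NK (57.7 ± 14 CPM), with a log2 fold change of -2.93 ± 0.56 (SE, adjusted p = 0.00486). Of the 9 other complement genes tested in each comparison these were the only calls. The share of all genes called was 0.0736% in LM CD49a- NK against MFL NK. It was 0.14% in LM CD49a+ NK against LM CD49a- NK and 3.06% in MFL ILC1 against MFL NK. Itgax, which was far lower in F4/80high than in F4/80low MAMs, was at 327 to 520 CPM in the 6 libraries of NK cells from metastases and was not called in any of the 3 lymphocyte comparisons.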

How the data were processed

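MAM libraries were made with the Nextflex Rapid Directional kit after poly(A) selection and lymphocyte libraries with the SMARTer Stranded Total RNA Pico v2 kit. Per the labels, the authors trimmed reads with Trim Galore and quantified them against GRCm39 with Salmon (1.10.0 for MAMs, 1.5.0 for lymphocytes), and they deposited estimated counts per gene as whole numbers. The annotation release of the MAM table is not given in the sources used here, and each lymphocyte library was a pool of samples. The MAM table held no gene with fewer than 37 counts in total.

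Gene symbols, positions and lengths came from GENCODE M39 (GRCm39) by Ensembl identifier, which named 13726 of 13759 MAM genes. Counts were fitted per table with edgeR 4.0.16 in R 4.3.3 (filterByExpr, TMM scaling, quasi-likelihood test, Benjamini-Hochberg adjustment over all genes, threshold 0.1). Each SE is the log2 fold change divided by the root of its F value. CPM used TMM-scaled library sizes. The fit was tested on simulated data. DESeq2 1.42.0 and limma 3.58.1 served as alternatives.

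The 9 genes and all gene lists were chosen with earlier results of these data known. Text names the 9 genes, listed complement genes of at least 1 CPM in a group, table genes within 50 kb of a member and the 5 genes most like the mean C1q profile. 1 listed complement gene is not reported here. Transcript lengths were changed from all exons to the canonical transcript after the values were seen.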

Additional observations from a re-analysis of the deposited data

How the results depend on the processing

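Each of the 9 log2 fold changes between F4/80high and F4/80low MAMs was recomputed under 12 alternatives (DESeq2 size factors, upper-quartile scaling, the DESeq2 Wald test, limma-voom, no filter on low counts, a replicate block and leaving out each of the 6 libraries). Of the 108 values, 105 kept direction and side of the threshold, none reversed, and the 3 others are those of Cfb given above. Lowest to highest over the settings that keep every library and then over the left-out libraries, C1qa ran from 2.29 to 2.39 and 2.21 to 2.39, C1qc from 2.48 to 2.58 and 2.43 to 2.57, C4b from 2.94 to 3.25 and 2.49 to 3.53, C3 from -1.13 to -1.03 and -1.35 to -1.01, Cfp from -0.90 to -0.80 and -0.94 to -0.82, C3ar1 from 1.26 to 1.37 and 1.099 to 1.52, and C5ar1 from 0.83 to 0.94 and 0.67 to 1.16. All 9 genes stayed called under each of the scaling, test, filter and block alternatives, with 8 to 9 when a library was left out, 8 at an adjusted p under 0.05 and 6 with a change of at least 2-fold.

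Of all genes, 7555 were called, and 3030 with a change of at least 2-fold. Of the complement list, 23 were called, and 14 with a filter at a mean of 5 CPM, which tests fewer genes. Upper-quartile scaling moved the median log2 fold change of all genes from 0.01 to 0.10 and the higher share of calls from 50.6% to 59.9%. With the replicate number as a block 7512 genes were called. The deviations of same-numbered libraries did not correlate above 0.1 in every pair, so the main fit did not take the numbers as pairs. The correlations ran from -0.0145 to 0.172 over 3 pairs of MAM libraries and -0.045 to 0.098 over 18 pairs of lymphocyte libraries. Erythroid markers, however, summed to 42.6 CPM in F4/80high and 100.1 CPM in F4/80low replicate 3, against 1.49 to 3.84 CPM in the other MAM libraries. The paper describes 3 independent sortings of the lymphocytes. Whether libraries of one number shared a preparation was not tested. The block changed no call of the 9 genes.

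In lymphocytes the count of called members moved from 0 to 1 in LM CD49a- NK against MFL NK with the DESeq2 Wald test and with no filter on low counts, and from 0 to 1 in LM CD49a+ NK against LM CD49a- NK with the DESeq2 Wald test. Each of these was C3, which had 0, 0 and 1 counts in the LM CD49a- NK libraries, so nothing was read from these calls. The cause was not tested. It stayed at 0 when any library was left out. The lymphocyte libraries held 8795721 to 14386834 counts, and their biological coefficient of variation was 0.891, against 0.162 in MAMs.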
